A study of Mus musculus with 2 samples.

Results

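The genes described here encode the signalling chains of the T cell antigen receptor, the CD8 coreceptor and the proteins that act directly behind them. They are Cd3d, Cd3e, Cd3g, Cd247, Cd8a, Cd8b1, Lck, Zap70, Lat and Txk, 10 genes taken by symbol. A probe was found for 9 of them, among 19316 genes named in the table, and Lck was not analysed here. Their RNA was measured in extracellular vesicles that murine CTL (cytotoxic T lymphocytes, the killer cells of the T lineage) had shed into their culture medium over 7 days. Medium was concentrated and freed of protein by ultrafiltration at a 750 kDa cutoff, per the labels' protocols, and loaded on DEAE, a positively charged resin from which more negatively charged particles need more salt to leave. The groups were the vesicles that left the column at 0.3 M NaCl and those that left at 0.5 M NaCl, with 1 array each and both from CTL medium. Strain, age and genotype of the mice, how the cells were stimulated, and how many preparations were pooled per fraction are not stated in these sources. With 1 array per fraction no value has a replicate error and no test was possible, so each difference describes this pair of arrays.

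The T cell receptor binds peptide on MHC molecules but has almost no tail inside the cell. Its signal is carried by CD3 delta, epsilon, gamma (Cd3d, Cd3e, Cd3g) and zeta (Cd247), whose tails hold tyrosine motifs. CD8, a pair of CD8 alpha (Cd8a) and CD8 beta (Cd8b1) chains or of alpha chains alone, binds MHC class I and brings the kinase Lck to those tails. Zap70 docks on the phosphorylated motifs and phosphorylates Lat, the membrane scaffold on which downstream enzymes assemble, and Txk is a Tec family kinase of T cells. CD8 marks the lineage of these cells, and Zap70, Cd247 and Txk are also made by NK cells.

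The genes of CD3 delta, epsilon and gamma lie next to each other. In RefSeq's mouse annotation Cd3d has Cd3g on one side and Cd3e on the other with no protein-coding gene between them, Cd8a and Cd8b1 are likewise neighbours, and Txk lies beside the related kinase gene Tec. A promoter entry of RefSeq (build GRCm38.p6) was matched for 9 of the 10 genes. The 250 bases before the transcription start of the CD3 cluster genes, which had differences of the same sign, and of Lat, whose difference had the other sign, are shown 5′ to 3′ on the gene's own strand. Capitals mark matches on either strand to an E box (CANNTG), to the ETS core GGAAGT, read as ACTTCC on the other strand, or to the GATA core AGATAA. The windows are chr9:44980432-44980681 (minus strand) for Cd3g, chr9:44981536-44981785 (plus strand) for Cd3d, chr9:45009612-45009861 (minus strand) for Cd3e and chr7:126369569-126369818 (minus strand) for Lat.
Cd3g: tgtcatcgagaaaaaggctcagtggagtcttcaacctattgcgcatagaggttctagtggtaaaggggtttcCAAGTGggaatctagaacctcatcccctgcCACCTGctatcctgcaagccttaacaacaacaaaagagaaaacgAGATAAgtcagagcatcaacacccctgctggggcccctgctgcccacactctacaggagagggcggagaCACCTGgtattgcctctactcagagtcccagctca
Cd3d: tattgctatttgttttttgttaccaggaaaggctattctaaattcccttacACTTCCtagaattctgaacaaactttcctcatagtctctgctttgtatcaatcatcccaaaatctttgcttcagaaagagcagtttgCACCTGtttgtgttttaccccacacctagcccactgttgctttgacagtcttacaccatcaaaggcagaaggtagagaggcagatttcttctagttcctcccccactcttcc
Cd3e: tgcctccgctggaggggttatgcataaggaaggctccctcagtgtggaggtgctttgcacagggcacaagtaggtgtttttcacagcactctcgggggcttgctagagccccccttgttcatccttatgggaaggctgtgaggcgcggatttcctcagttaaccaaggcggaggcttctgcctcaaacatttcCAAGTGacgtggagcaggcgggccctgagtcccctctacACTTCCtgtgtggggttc
Lat: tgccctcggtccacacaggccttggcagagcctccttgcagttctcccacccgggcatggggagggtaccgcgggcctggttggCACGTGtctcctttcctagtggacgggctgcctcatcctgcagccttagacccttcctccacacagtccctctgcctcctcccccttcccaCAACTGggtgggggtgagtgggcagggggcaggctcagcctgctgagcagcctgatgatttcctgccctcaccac
The start sites of Cd3g and Cd3d point away from each other, and 854 bases lie between their shown windows. The Cd3g window holds E boxes whose first bases are at -178, -148 and -35 from the start and a GATA core at -104. The Cd3d window holds an ETS core at -199 and an E box at -112. That of Cd3e holds an E box at -57 and an ETS core at -18. That of Lat holds E boxes at -166 and -75. None of these 4 windows holds the TATA box TATAAA or the RUNX core TGTGGT. Of 32841 mouse promoter windows of the same length, 66.2% hold an E box, 19.7% the ETS core, 9.99% the GATA core, 12.4% the TATA box and 14.0% the RUNX core. These matches describe letters, and whether they go with the array values was not tested. The windows shown were introduced by the signs of the differences. Those of Cd247, Zap70 and Txk, which also lay above 0, and of Cd8a, which like Lat lay below 0, are not shown. The RUNX core does occur in windows of Lck, Zap70 and Txk that are not shown.

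A value was present for 18969 of the 23473 probes at 0.3 M and for 16732 at 0.5 M, and an empty cell was left as missing. The median over the 16154 probes with a value on both arrays was 32 at 0.3 M and 26 at 0.5 M. Differences are log2 intensities at 0.5 M minus 0.3 M after each array was centred on that median, which took out a shift of -0.30. Of the 13735 genes with a value on both arrays, 7446 reached the array's median over those genes on at least 1 array and are called kept. Their median difference was 0.08, with quartiles at -0.29 and 0.47. Different probes of the same gene, in the 358 kept genes that had several, differed from each other with a pooled SD of 0.55. It is the only error these data give, and it does not cover differences from one vesicle preparation to another. The differences of all kept genes had an SD of 0.56, about the same size. The rank of a single-probe gene among kept genes is therefore uncertain by about that spread. Fewer vesicles from a cell type and less of an RNA per vesicle cannot be told apart in these samples. Each of the 9 genes rests on a single probe with values, and intensities of different probes are not compared as levels.

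All 4 CD3 chains were brighter at 0.5 M than at 0.3 M, in the deposited intensities as well as after centring. Cd3g (probe M200001786) had an intensity of 105 at 0.3 M and 162 at 0.5 M. That is a difference of 0.93, or 1.90-fold, higher than in 93.1% of kept genes. Cd3d (M200001795), which pairs with CD3 epsilon as CD3 gamma does, went from 849 to 990, a difference of 0.52 (1.44-fold). Cd247 (M200000443), the zeta chain with the most signalling motifs, went from 43 to 53, a difference of 0.60 (1.52-fold). Cd3e (M400001428), the partner of both delta and gamma, was read at 12 and 14. It was the only measured gene of the set that was not kept. Its difference of 0.52 lies between 0.41 and 0.63 when the rounding of the deposited whole numbers is allowed for. The differences of Cd3d and Cd3e lay within 1 SD between probes of 0, and those of Cd247 and Cd3g were 1.09 and 1.68 such SDs. Cd3g exceeded its neighbour Cd3d by 0.40, less than the SD of 0.78 expected of a gap between 2 genes, so the CD3 chains were not separable from each other.

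**Figure D1:**
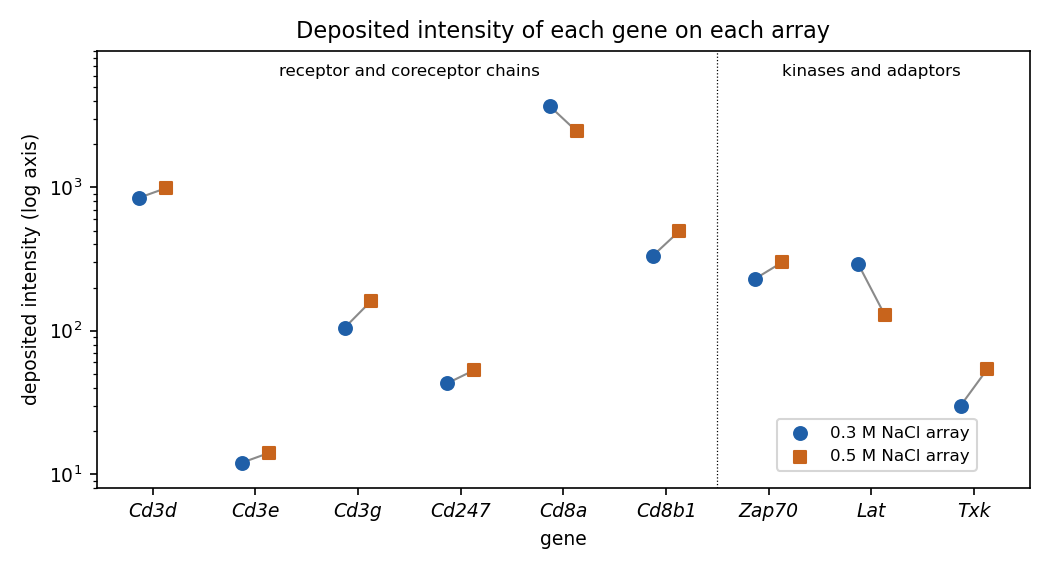
Deposited intensity (log axis) of each measured gene on the 0.3 M array (circles) and the 0.5 M array (squares), 1 array per fraction, so there are no error bars. Of the 9 genes, 7 have the square above the circle, while Cd8a (3677 to 2463) and Lat (294 to 129) have it below; heights of different genes are not comparable.

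The chains of the CD8 coreceptor had differences of opposite sign, though that of Cd8a was small after centring. Cd8a (M400004660) had an intensity of 3677 at 0.3 M and 2463 at 0.5 M, a difference of -0.28 after centring, or 1.21-fold lower. Cd8b1 (M400004323) had 333 and 496, a difference of 0.87 (1.83-fold higher). The difference of Cd8a lay within 1 SD between probes of 0, at -0.50 such SDs, and that of Cd8b1 was 1.58 SDs. The gap between them was 1.15, and it does not depend on a constant scaling of the arrays. It ran from 1.13 with a pseudocount to 1.44 with loess. It came to 1.48 times the SD expected of a gap between 2 genes. A further probe annotated to Cd8a (M400018716) was empty on both arrays, so the Cd8a value has no second probe value to stand beside it. Among kept genes, 25.2% had a lower difference than Cd8a and 91.8% a lower one than Cd8b1.

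The kinases and the adaptor held both ends of the range. Txk (M400004970) went from 30 at 0.3 M to 54 at 0.5 M, a difference of 1.15 (2.22-fold). Rounding allows 1.11 to 1.19, and 97.0% of kept genes had a lower difference. Zap70 (M200002658), the kinase recruited to the CD3 and zeta tails, went from 231 to 300, a difference of 0.68 (1.60-fold). Lat (M200002909), the substrate of Zap70, went the other way, from 294 to 129, a difference of -0.89 (1.85-fold lower). Only 3.72% of kept genes had a lower difference than Lat. In the deposited intensities Lat was 2.28-fold lower at 0.5 M. The gap between Zap70 and Lat, enzyme and substrate, was 1.57, or 2.01 times the SD expected of a gap. That between Txk and Lat was 2.04, or 2.61 times that SD. These gaps were picked out after the values were seen.

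Txk was the only gene of the set at least 2-fold higher, 1 of the 8 that were kept, where 5.24% of kept genes were, and its difference was 2.08 SDs between probes. At least 2-fold lower were 0 of 8, against a background of 2.35%. A count of 1 among 8 genes is not distinguishable from that background. Above 0 lay 6 of the 8, against 55.9% of kept genes. The call of Txk was lost with the values as deposited (0.85) and with a pseudocount of 16 (0.80), under which 0 of the genes were past 2-fold and 3.42% of kept genes were. Lat passed 2-fold with the values as deposited (-1.19), under which 7.78% of kept genes were at least 2-fold lower. It did so too with quantile normalization (-1.02) and loess (-1.02), where Txk and Lat were the 2 genes past 2-fold and the background in either direction was 7.13% and 7.09%.

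**Figure D2:**
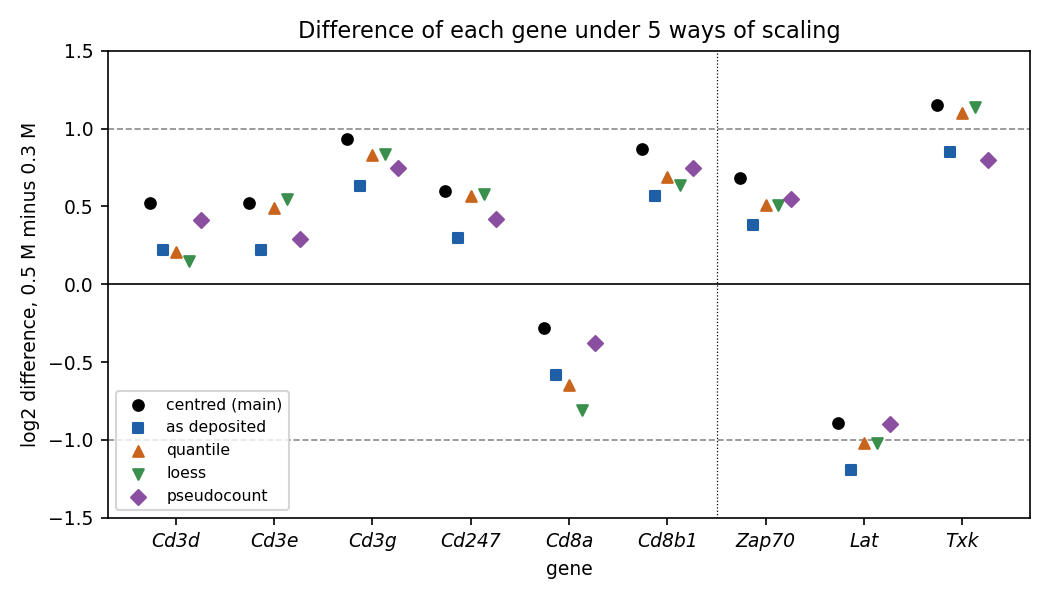
Log2 difference (0.5 M minus 0.3 M) of each measured gene under 5 ways of scaling the arrays, with receptor chains left of the dotted line, kinases and the adaptor right of it, and dashed lines at 2-fold in either direction. Every symbol of Cd8a and Lat lies below 0 and every symbol of the other 7 genes lies above it, while Txk and Lat cross the 2-fold lines between settings.

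Receptor chains were not set apart from kinases and adaptors. The 6 chains had a median difference of 0.56, running from -0.28 to 0.93, and Zap70, Lat and Txk had a median of 0.68. The difference between these medians was -0.12, and it changed sign with quantile normalization (0.03) and loess (0.06). Each role held a gene that was lower at 0.5 M. All 9 measured genes together had a median of 0.60, against 0.08 for kept genes, and with the values as deposited 0.30 against -0.22. The 9 include Cd3e, which was not kept, and the median over all genes with a value on both arrays was 0.05 after centring. The signs of the single differences were steadier than their sizes. Under the 7 settings tried, the same 7 genes lay above 0 and the same 2, Cd8a and Lat, below it. Filling empty cells and taking the brightest probe could not change these values, since each gene has a single probe with values. With the values as deposited 34.4% of kept genes lay above 0. Cd8a moved most, from -0.28 to -0.81 with loess, and Cd3d went from 0.52 to 0.15.

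**Figure D3:**
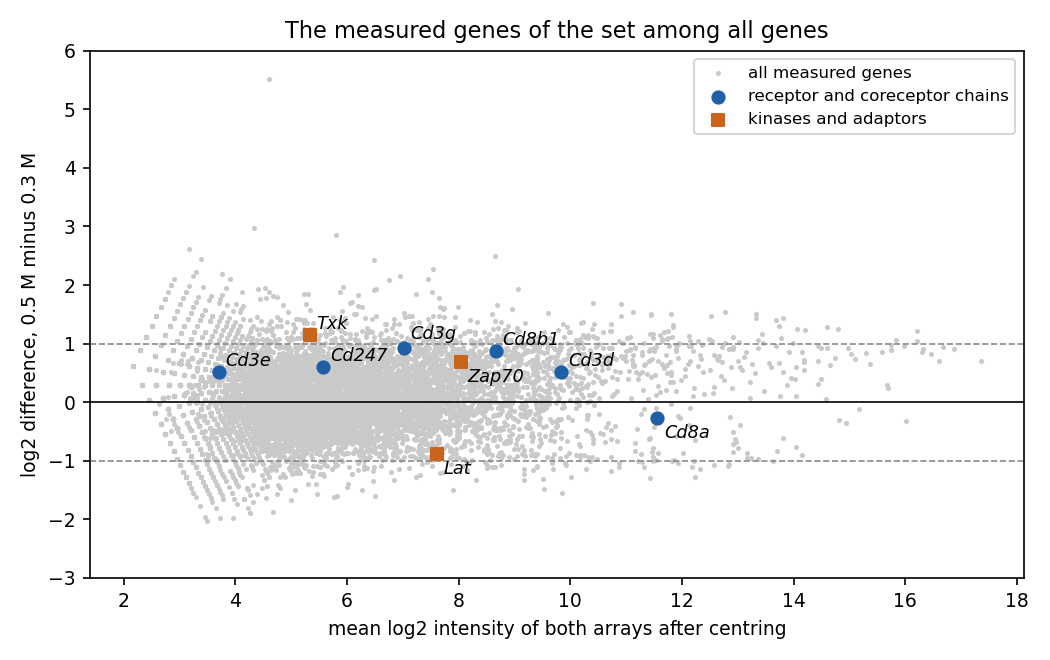
Log2 difference (0.5 M minus 0.3 M, after centring) against mean log2 intensity for the 13735 genes with a value on both arrays (grey), with CD3 and CD8 chains as circles, kinases and the adaptor as squares, and dashed lines at 2-fold. Txk is the only gene of the set beyond a dashed line, and Cd3e lies among the dim genes, where rounding to whole numbers spreads the grey points into stripes.

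The wider pathway was covered by 7 lists of genes, arranged by role, of which 98 genes had a probe, 75 a value on both arrays and 50 were kept. Of the 50, 1 was at least 2-fold higher and 0 at least 2-fold lower, against the same backgrounds of 5.24% and 2.35%. Their median difference was 0.10, close to that of all kept genes, with 30 above 0 and 20 below, where 55.9% of kept genes lay above 0. The single gene past 2-fold was Rac2, a GTPase of blood cells that reshapes actin, which went from 927 to 1508, a difference of 1.0. With quantile normalization it was at 0.64.

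Other receptors of the T cell surface had a median of 0.03 over 7 kept genes. The adhesion receptor Cd2 went from 270 to 361 (0.72) and the surface glycoprotein Thy1 from 2015 to 2516 (0.62). Cd4, the coreceptor of helper T cells, went from 40 to 25 (-0.38) and the inhibitory receptor Cd5 from 53 to 36 (-0.26). Other proximal kinases had a median of 0.40 over 5 kept genes and none past 2-fold. Csk, which restrains Lck, went from 284 to 304 (0.40), Map4k1, a kinase that dampens the signal, from 199 to 233 (0.53) and Pdpk1 from 24 to 27 (0.47). Syk, the relative of Zap70 used mainly by B cells and myeloid cells, went from 98 to 60 (-0.41). Fyn, the Src family kinase that works beside Lck, was dim at 11 and 13, and Tec, the neighbour and relative of Txk, was empty on both arrays; both were picked for their kinship and not by the naming rule.

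Other adaptors had the highest median of the 6 lists with kept genes, 0.42 over 10 kept genes, with 7 above 0 and none past 2-fold. Of all kept genes, 55.9% lay above 0. Was, which links the receptor to actin, went from 136 to 212 (0.94). Lime1, a membrane adaptor like Lat, went from 204 to 311 (0.91), so it had the opposite sign to Lat. Fyb, an adaptor of integrin activation, went from 112 to 148 (0.70) and Lax1, a membrane adaptor that limits signalling, from 37 to 44 (0.55). Lcp2 (SLP-76), which binds Lat through Grap2, went from 49 to 35 (-0.19), and Grap2 had a mean difference of 0.00 over its probes; both were picked for their place beside Lat.

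Downstream effectors, negative regulators and activation targets had medians near that of all genes. Effectors had a median of 0.04 over 13 kept genes. Besides Rac2, the GTPase Cdc42 went from 129 to 171 (0.71) and Rasgrp2, an activator of Rap proteins, from 668 to 723 (0.41). The diacylglycerol kinase Dgkz had a difference of -0.56. Negative regulators had a median of 0.03 over 9. The phosphatase Ptpn2 went from 123 to 58 (-0.78, and -1.08 with the values as deposited). Nfkbia, the inhibitor of NF-kappaB, went from 465 to 647 (0.78), and the adaptors Dok2 (0.58) and Dok1 (0.51), which hold back Ras signalling, lay above 0. Genes switched on by the receptor had a median of 0.09 over 6. They were led by Ifng, the cytokine interferon gamma, from 468 to 238 (-0.68), and held the transcription factors Egr2 (-0.29), Junb (0.28) and Irf4 (0.27). Activating phosphatases had no kept gene. Ptprc, the phosphatase CD45 that activates Lck, was at 13 at 0.3 M and empty at 0.5 M, and it was not picked by the naming rule.

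**Figure D4:**
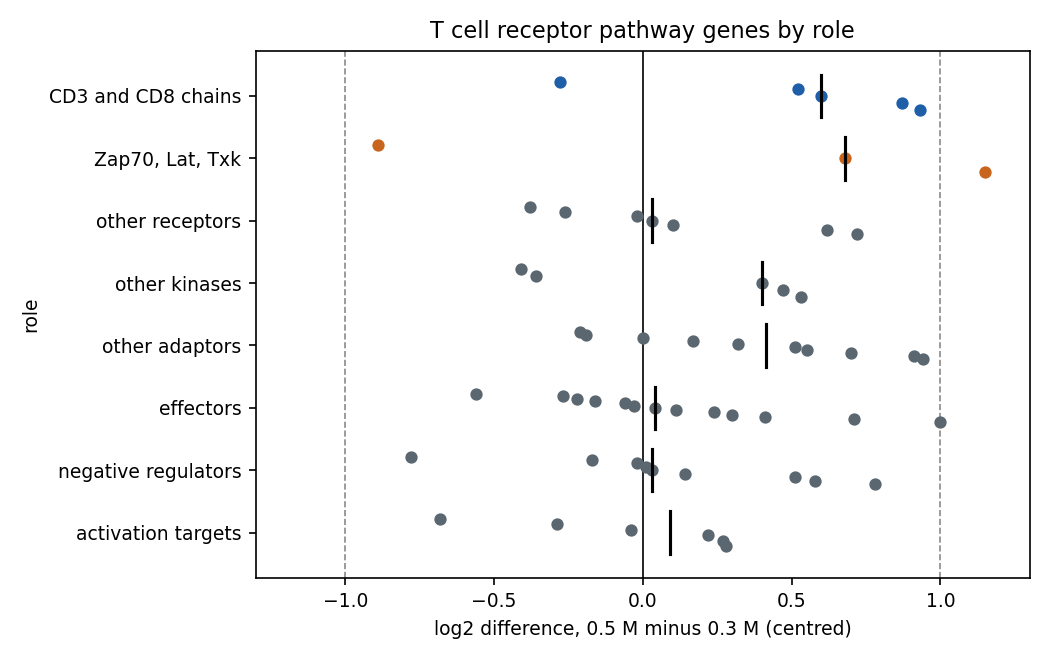
Log2 difference (0.5 M minus 0.3 M, after centring) of each kept gene of the T cell receptor pathway by role, with a black bar at each list's median and dashed lines at 2-fold. Medians of CD3 and CD8 chains (0.60 over the 5 kept) and of Zap70, Lat and Txk (0.68) lie right of those of the other lists, which run from 0.03 to 0.42, and points of every list lie on both sides of 0.

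Both arrays held CTL markers, all 10 of which had a value on both. Among them the transcription factor Tbx21 went from 39433 to 25174 and Gzmb, granzyme B, from 2493 to 2838. Their summed deposited intensity was 47872 at 0.3 M and 33047 at 0.5 M, most of it from Tbx21. Gene by gene, 6 of the 10 lay above 0 and 4 below, against 55.9% of kept genes above 0, with a median difference of 0.47. That median was 0.19 with quantile normalization, 0.10 with loess and 0.18 with the values as deposited. Those above 0 included Ctsw (43 to 82), Nkg7 (405 to 548), Gzmc (787 to 958) and Gzma (200 to 224). Those below 0 were Ifng (-0.68), Tbx21 (-0.35), Cd8a (-0.28) and Prf1 (33 to 26, -0.04). Of these, Ctsw, Nkg7, Gzmc, Gzma and Prf1 were named here after their values were seen. Markers of other cells were also read, and their sums leave out probes that were empty on either array. B cell markers had a value on both arrays for 6 of 7 genes with a probe, and their sum was 424 at 0.3 M and 737 at 0.5 M, with Cd79b from 94 to 328 and Cd74 from 43 to 188, Cd22 from 225 to 126, and Pax5 empty on both arrays. NK cell markers had 5 of 8, with sums of 264 and 366 and a median difference of 0.46 over 3 kept genes. Most of the sum was Klra8 (151 to 244). Eomes went from 54 to 60 and Tyrobp from 33 to 37, while Klrb1c, Klri2 and Klrk1 were empty on both. Markers of helper and regulatory T cells had 6 of 7, with sums of 217 and 218. Ctla4 went from 64 to 82 and Zbtb7b from 66 to 61, and Cd40lg was empty at 0.3 M and 36 at 0.5 M. Gamma delta T cell markers had 1 of 2, Sox13 (114 and 109), and Blk was empty at 0.3 M and 8 at 0.5 M. Myeloid markers had 5 of 8, with sums of 135 and 143. Cd68 was read at 50 and 53, Csf1r at 49 and 50 and Lyz2 at 18 and 18. Adgre1 and Itgam were empty on both. The sums of the B and NK cell markers, in deposited intensities that are not centred, were thus higher at 0.5 M, though not every marker in them was. After centring, the median difference of kept markers was 1.84 for B cells, 0.46 for NK cells and 0.36 for myeloid cells. It was 0.19 for helper and regulatory T cells. These medians rest on 4, 3, 2 and 3 kept genes in that order. Also higher at 0.5 M were the intensities of the CD3 chains, Cd8b1, Zap70, Txk and several CTL markers, while other CTL markers were lower. The part of B and NK cells in those differences was not tested. Of reference genes, Actb went from 1437 to 1184 (0.02), B2m from 418 to 494 (0.54) and Gapdh from 119 to 178 (0.88), so a difference of the size of Cd3g or Cd8b1 was also seen in Gapdh, a gene of glycolysis.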

How the data were processed

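Total RNA of 2 vesicle fractions was amplified with an amino allyl kit, labelled with Cy5 and hybridised to 1 single-colour array each, per the labels' protocols. Each deposited value is a probe intensity, linear and in whole numbers; scanner, background correction, normalization and the rule behind empty cells are not stated in these sources. Of 23473 probes, 20690 carried 1 gene symbol and 2783 none; 20556 symbols were matched through the Entrez identifier and 9 through the accession in RefSeq's GRCm38.p6 gene table, and 125 kept the array's symbol. Intensities were log2-transformed, centred per array on the median of probes with a value on both, and averaged over a gene's probes. Kept genes reached the array's median over measured genes on at least 1 array; a call is a 2-fold difference. The number of arrays limits the precision. Members and gene lists were chosen with earlier results of these data known. Named were all members, Actb, Gapdh and B2m, and up to 4 kept genes of each pathway list with the largest absolute difference. The 3 brightest of each marker list were named too. Other names are marked, are markers empty on an array or are genes past 2-fold under another setting. Also tried were uncentred deposited values, quantile normalization, loess (lowess of statsmodels 0.14.6, span 0.3), a pseudocount of 16, empty cells at the array's lowest intensity, the brightest probe per gene and no filter. The code was tested on simulated data.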

Additional observations from a re-analysis of the deposited data

How the results depend on the processing

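Genes of the set past 2-fold numbered 1 after centring (Txk), 2 with quantile normalization and 2 with loess (Txk and Lat in each) and 0 with a pseudocount; with the values as deposited the count of 1 was Lat in place of Txk. Other genes of the pathway past 2-fold numbered 1 after centring (Rac2) and 1 with the values as deposited (Ptpn2, at -1.08, in place of Rac2). With quantile normalization, with loess and with a pseudocount they numbered 0. They numbered 2 with empty cells at the lowest intensity (Rac2 and Jun) and 4 with no filter on dim genes (Rac2, Jun, Vav1 and Themis2). Jun, Vav1 and Themis2 were each read at 20 or less on both arrays. For these last 2 settings the share of all genes past 2-fold is not given. Without the filter, 75 genes of the pathway enter in place of 50. The counts of 2 and 4 are therefore not set against a background. The median of the receptor chains lay between 0.26 and 0.56 and that of the kinases and adaptors between 0.38 and 0.68 over all settings. Using the brightest probe per gene or filling empty cells changed no difference of the set, since each gene has a single probe with values. No paired analysis was possible because each fraction has 1 array. Leaving out a replicate was not possible either. Dim probes such as Cd3e, at 12 and 14, limit what can be said of their differences.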
